A study of Homo sapiens with 47 samples.

Results

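The epithelial (EPI) and mesenchymal (MES) fractions of cultures at passage 8 (P8) were compared within each of 3 independent differentiations, r1 to r3. The 6 libraries are those whose labels read P8_EPI and P8_MES, of 47 in the series, and each MES library was paired with the EPI library of the same replicate number. All cultures came from 1 line, WA09 (H9), an established human embryonic stem cell line. The cells were first taken for 36 h to neuromesodermal progenitor (NMP)-like cells and then passaged every few days as a mixture of pre-neural progenitors (PNPs) and neural crest (NC). Both fractions, and the whole P8 cultures of the same differentiations, had the same N2B27 medium without vitamin A. It held the WNT agonist CHIR-99021, rhFGF2, the inverse agonist of retinoic acid receptors AGN193109 and the ROCK inhibitor Y-27632. The fractions were obtained by selective detachment with TrypLE, a dissociation enzyme, so they are enriched and not purified populations, and the labels call the EPI fraction neural progenitors and the MES fraction neural crest. The corresponding fractions of passage 5 (P5), 6 libraries from the same differentiations 3 passages earlier, and the 3 whole P8 cultures are used for comparison. The P5 fractions also served to choose genes that were then read at P8.

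NC cells arise from the edge of the neural epithelium. They lose epithelial organisation and become migratory mesenchyme, a change that is governed by transcription factors of the SNAI, TWIST, ZEB and SOX families. They then give rise to peripheral glia, pigment cells and, in the head, connective tissue. PNPs of the posterior axis express *SOX2*, a neural progenitor factor, together with *CDX2*, a posterior axis factor, and carry *HOX* genes whose order along the clusters follows the order of the body axis.

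Values are RSEM expected counts, which divide a read between the genes it could come from, scaled by the TMM factors of edgeR and called normalized counts here. The 6 libraries held from 24317552 to 64082859 expected counts, and MES r2 was the shallowest. No pair of libraries of 1 fraction agreed within sampling noise, so each was counted as 1 sample. Mitochondrial genes held 4.19%, 3.78% and 2.38% of counts in EPI r1, r2 and r3 and 2.17% to 3.23% in MES, lower in MES in each pair. The nuclear RNAs *MALAT1* and *NEAT1* together held 0.0630%, 0.0678% and 0.0628% in EPI and 0.0853%, 0.0841% and 0.0980% in MES, higher in each pair, and the part of either in the results below was not tested. In these bulk samples, fewer cells of a type and less RNA per cell cannot be told apart.

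The label epithelial was checked against some markers of epithelia. *CDH1* (E-cadherin, the cell adhesion molecule that defines most epithelia) lay between 0.19 and 1.08 TPM (a length-corrected relative level) in all 6 libraries, and *EPCAM*, an epithelial surface antigen, reached at most 8.60 TPM. *CDH2* (N-cadherin), which neural epithelium carries in place of *CDH1*, lay between 216 and 283 TPM in EPI and between 101 and 258 TPM in MES. *GRHL2*, an epithelial transcription factor, did not exceed 0.28 TPM in any library. *CDH1* and *GRHL2* were thus near 0 in both fractions, while *EPCAM* was detected at a low level. Other genes of epithelial junctions were abundant in both fractions. Of that list, *CDH3* (P-cadherin) had the highest mean level in EPI and *TJP1* (the tight junction protein ZO-1) in MES. The paper judged the P5 colonies epithelial from their compact form and from tagged ZO1 at tight junctions in another cell line. The PNP factor *SOX2* had 301, 143 and 105 TPM in EPI and 191, 90.4 and 30.3 TPM in MES of r1, r2 and r3. It was lower in MES in each pair and was still detected well above *CDH1* in every MES library. *TWIST1*, an NC and mesenchymal factor, had 9.93, 77.4 and 257 TPM in EPI and 75.6, 170 and 376 TPM in MES. EPI of r3 exceeded MES of r1 and of r2, so that for *TWIST1* the fractions overlapped between differentiations and separated only within a pair.

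Libraries of 1 fraction from different differentiations were about as far apart as the fractions of 1 differentiation, or farther. Over 12956 genes, the root mean square log2 distance between EPI and MES of 1 differentiation was 0.57, 0.34 and 0.44 in r1, r2 and r3. EPI libraries of different differentiations lay 0.57 to 0.87 apart and MES libraries 0.54 to 0.78 apart. The corresponding EPI to MES distances at P5 were 0.67, 0.50 and 0.59, each larger than at P8 in the same differentiation.

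**Figure D1:**
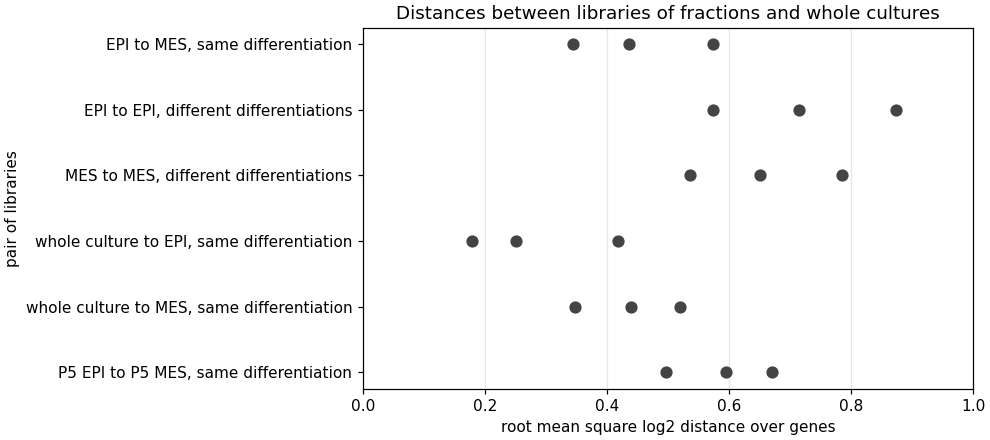
Root mean square log2 distance (x axis, over 12956 genes) between pairs of libraries, with 3 points for each kind of pair (y axis). The P8 EPI to MES points run from 0.34 to 0.57 and the points for EPI libraries of different differentiations from 0.57 to 0.87.

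With the differentiation as a block, edgeR's quasi-likelihood test called 0 of 17970 genes between P8 MES and P8 EPI (0%) where a call needed a Benjamini-Hochberg adjusted p under 0.05, a 2-fold difference and, over the 6 libraries, 100 normalized counts on average. The smallest adjusted p was 0.10, and 3274 genes (18.2%) had an unadjusted p under 0.05 in edgeR, 1792 higher and 1482 lower in MES. DESeq2 with the same block called 256 genes higher (1.42%) and 23 lower (0.128%), 1.55% in all. Without a filter on low counts edgeR called 0.599% of the genes, 0.553% higher and 0.0461% lower. The fit has 2 residual degrees of freedom. What follows is therefore a description by the direction and size of the difference in each pair. No gene is said to have passed edgeR's test in the fit of 17970 genes.

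Of the genes tested, 3728 (20.7%) were higher in MES in all 3 pairs and 4472 (24.9%) were lower in all 3. With a fitted difference of 2-fold or more, an average of 100 normalized counts and 1 direction in every pair as the criteria, there were 361 genes higher in MES (2.01%) and 39 lower (0.217%). This rule was chosen after the edgeR result was seen and carries no test. The counts depended on the differentiations used, with 218 higher and 135 lower without r1, and the lower genes numbered 111 without r2 and 14 without r3. DESeq2 called 253 of the 361 (its total was 256 higher) and 23 of the 39 (its total was 23 lower). All MES libraries exceeded all EPI libraries for 88 of the 361 genes, and all lay below for 10 of the 39, and 4.49% and 4.56% of all genes tested did so. These genes were chosen on the same libraries, so a larger share among them is set by that choice.

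The 2 directions came mainly from different differentiations. Among the 361 higher genes the largest of the 3 ratios was that of r1 for 314, of r2 for 26 and of r3 for 21, with median log2 ratios of 2.54, 1.14 and 0.86. Among the 39 lower genes it was that of r3 for 36, with medians of -0.80, -0.80 and -2.07. Only 68 of the 361 genes reached 2-fold in every pair, and 1 of the 39 did. In the P5 libraries, which this choice of genes did not use, 353 of the higher genes were tested and had median log2 ratios of 2.18, 1.57 and 1.11 in r1, r2 and r3. The 37 lower genes tested there had medians of -1.37, -1.43 and -1.88, so r1 gave the largest median for the higher genes and r3 for the lower genes at both passages. The cause was not tested.

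**Figure D2:**
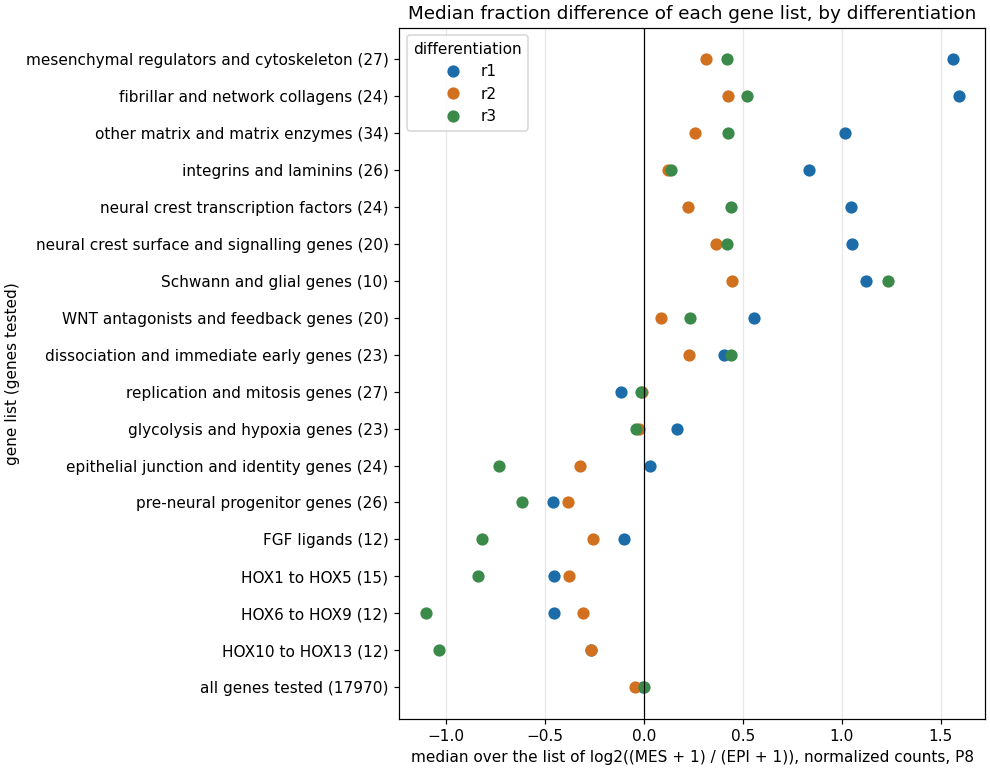
Median over each gene list (y axis, with the number of genes tested) of the log2 ratio of MES to EPI at P8 in each differentiation (x axis, on normalized counts with 1 added). Mesenchymal, matrix and glial lists and those of neural crest transcription factors and surface genes lie to the right of 0 in each differentiation. They lie farthest right in r1 except for glial genes, while the pre-neural and *HOX* lists lie to the left and farthest in r3. Only a chosen part of the lists is drawn. Medians of melanocyte genes and of autonomic and enteric genes, which are not drawn, went in both directions.

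Regulators and cytoskeletal genes of mesenchyme were mostly higher in MES. Of 27 tested, 22 were higher in MES in all 3 pairs and 1, *CDH2*, was lower, with 7 at least 2-fold higher and a median log2 difference of 0.74, against -0.01 over all genes tested. *TWIST1* (chr7:19020991-19117672, GRCh38) had 317, 2786 and 9359 normalized counts in EPI and 2617, 5888 and 13027 in MES, ratios on the log2 scale of 3.04, 1.08 and 0.48. The ratio was smaller where the EPI level was higher, but that level is its denominator, so no trend is read from the 3 pairs. The fitted log2 difference was 1.47 (SE 0.52, edgeR adjusted p = 0.25, DESeq2 adjusted p = 0.24). *TWIST2*, its close relative, had 141, 470 and 4124 in EPI and 1318, 2199 and 8065 in MES, a log2 difference of 2.08 (SE 0.44, edgeR adjusted p = 0.17, DESeq2 adjusted p = 0.011). *SNAI2* (chr8:48917604-48921740), a repressor of epithelial genes, had 1758, 4565 and 7500 in EPI and 5744, 5678 and 11966 in MES, a log2 difference of 0.89 (SE 0.28, edgeR adjusted p = 0.22). Its relative *SNAI1* had 105, 206 and 1003 in EPI and 188, 227 and 1380 in MES. Both were higher in MES in every pair, and in both EPI of r3 exceeded at least one MES library. *VIM* (vimentin, the intermediate filament of mesenchyme) was abundant in both fractions, with 30933, 62142 and 117483 in EPI and 81910, 88369 and 143716 in MES.

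Among the surface and secreted proteins of the same list, *NT5E* (CD73) had 155, 324 and 302 normalized counts in EPI and 1569, 862 and 747 in MES, so that every MES library exceeded every EPI library, with a log2 difference of 2.00 (SE 0.45, edgeR adjusted p = 0.17, DESeq2 adjusted p = 2.2e-05). *PDGFRB*, a growth factor receptor of mesenchyme, had 1086, 2967 and 4983 in EPI and 5939, 6122 and 8434 in MES, again without overlap. *LGALS1* (galectin-1) had 241, 367 and 1170 in EPI and 2420, 1202 and 2490 in MES, a log2 difference of 2.02 (SE 0.46). *PDGFRA* was more even, with a log2 difference of 0.39 (SE 0.09). *PRRX1*, a mesenchymal homeobox factor, had a log2 difference of 0.05 (SE 0.08, edgeR adjusted p = 0.75).

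The 7 contractile genes of the same list were higher in MES in all 3 pairs, with the largest ratio in r1 for each. *ACTA2* (smooth muscle actin) had 5440, 16350 and 1152 normalized counts in EPI and 28302, 17524 and 1286 in MES, that is 5.20, 1.07 and 1.12 times the EPI level in r1, r2 and r3. *TAGLN* (transgelin) showed ratios of 3.73, 1.08 and 1.19 and *CNN1* (calponin) of 4.38, 1.11 and 1.19. *TPM1* (tropomyosin) followed with 4.07, 1.12 and 1.04. The other 3 had ratios of 3.32, 1.25 and 1.39 for *TPM2* (tropomyosin 2), 2.95, 1.11 and 1.36 for *MYL9* (a myosin light chain) and 3.31, 1.32 and 1.31 for *CALD1* (caldesmon). At P5 edgeR's quasi-likelihood test called *ACTA2* with a log2 difference of 1.75 (adjusted p = 0.014), and its log2 ratios there were 2.43, 1.73 and 1.10.

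**Figure D3:**
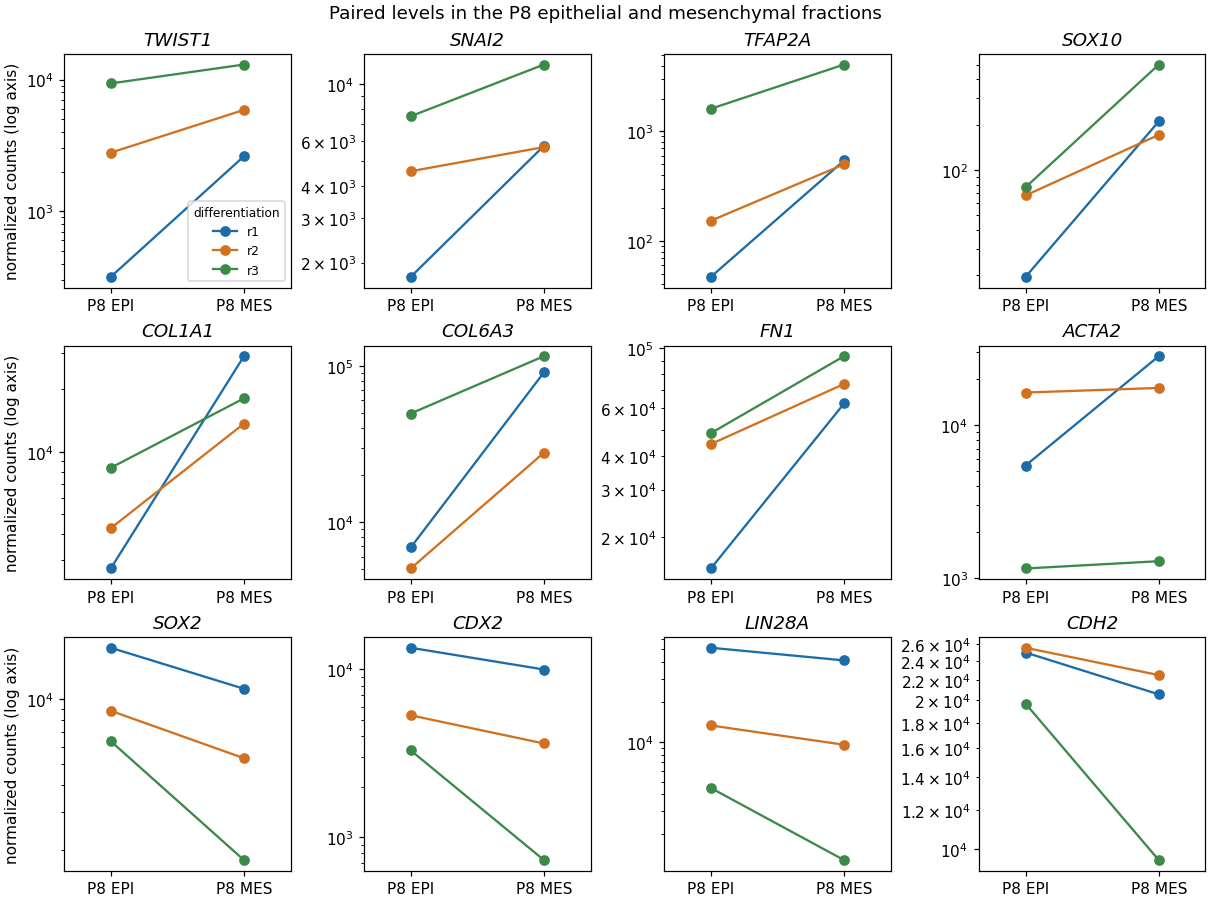
Normalized counts (log axes, whose ranges differ between panels) of 12 genes in P8 EPI and P8 MES, with a line joining the fractions of each differentiation. The mesenchymal, neural crest and matrix genes drawn go up from EPI to MES in each differentiation and *SOX2*, *CDX2*, *LIN28A* and *CDH2* go down. The lines start at levels that differ between differentiations, as *TWIST1* does from 317 to 9359. Other neural crest factors, such as *SOX9*, *FOXD3* and *PAX3*, are not drawn and did not go up in every pair.

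Extracellular matrix genes encode the fibres and linkers that mesenchymal cells deposit. Among 24 collagen genes, 17 were higher in MES in all 3 pairs, 2 were lower, and 9 were at least 2-fold higher, with a median log2 difference of 0.84. *COL1A1* (chr17:50183289-50201632), a chain of fibrillar collagen I, had 2739, 4284 and 8368 normalized counts in EPI and 28897, 13665 and 18093 in MES. The groups did not overlap, and the log2 difference was 2.04 (SE 0.47, edgeR adjusted p = 0.18, DESeq2 adjusted p = 0.024). *COL1A2*, the other chain, had 5448, 11199 and 40599 in EPI and 68256, 35253 and 71633 in MES, with EPI of r3 above MES of r2. *COL6A3* (chr2:237324003-237414375), a chain of microfibrillar collagen VI, had 6884, 5053 and 49505 in EPI and 90754, 27828 and 115213 in MES, a log2 difference of 2.47 (SE 0.51, edgeR adjusted p = 0.17, DESeq2 adjusted p = 0.0059). *COL12A1*, a collagen that coats fibrils, had 4355, 3833 and 10555 in EPI and 57544, 13617 and 24618 in MES, without overlap. The network collagen chains of basement membranes, *COL4A1* and *COL4A2*, were 14756, 19222 and 13603 against 39071, 29580 and 19206 and 22522, 24041 and 20095 against 37306, 32761 and 26448. Their log2 differences were 0.84 (SE 0.19) and 0.52 (SE 0.09), and *COL4A2*, the more even over pairs, had a DESeq2 adjusted p of 3.1e-05 and an edgeR adjusted p of 0.15. The 2 collagens lower in MES were *COL9A1* and *COL4A6*.

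In the list of other matrix genes and matrix enzymes, 24 of 34 were higher in MES in all 3 pairs, 2 were lower and 8 were at least 2-fold higher. *FN1* (fibronectin) had 15318, 44179 and 48491 normalized counts in EPI and 62432, 73747 and 93436 in MES, without overlap, a log2 difference of 1.23 (SE 0.27, edgeR adjusted p = 0.17, DESeq2 adjusted p = 0.022). *LOX*, which crosslinks collagen, had 214, 375 and 1366 in EPI and 1895, 1351 and 2765 in MES. The proteoglycan *LUM* (lumican) had 3518, 2157 and 10650 in EPI and 38532, 8028 and 15990 in MES, and *DCN* (decorin) 768, 201 and 2050 in EPI and 9054, 763 and 3149 in MES, so both overlapped between differentiations. *SPARC*, a collagen binding glycoprotein, went in both directions, with 136181, 371678 and 114833 in EPI and 163261, 274188 and 69939 in MES. Of 26 integrin and laminin genes, 12 were higher in MES in all 3 pairs and 2 lower, with 5 at least 2-fold higher. *ITGA11*, the integrin subunit of a collagen receptor, had 35.4, 21.6 and 298 in EPI and 436, 123 and 727 in MES, a log2 difference of 2.40 (SE 0.50). *ITGB1*, the common beta subunit, had a log2 difference of 0.20 (SE 0.14).

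NC transcription factors were higher in MES for 13 of 24 genes in all 3 pairs and lower for 4, with 8 at least 2-fold higher and a median log2 difference of 0.58. *SOX10* (chr22:37970686-37987422), a factor of migrating crest and glia, was low in EPI with 19.5, 67.7 and 76.8 normalized counts and had 210, 171 and 502 in MES. Every MES library exceeded every EPI library, and the log2 difference was 2.48 (SE 0.43, edgeR adjusted p = 0.15, DESeq2 adjusted p = 2.4e-06). *NR2F1*, a nuclear receptor of the crest, had 67.8, 84.2 and 224 in EPI and 454, 287 and 879 in MES, also without overlap, and a log2 difference of 2.16 (SE 0.23, edgeR adjusted p = 0.12, DESeq2 adjusted p = 5.8e-13). *TFAP2A* (chr6:10393186-10419659), a factor that sets up the crest, had 46.9, 153 and 1613 in EPI and 543, 501 and 4091 in MES, so EPI of r3 exceeded MES of r1 and r2. *TBX3*, a T-box repressor, had 5.05, 24.6 and 202 in EPI and 15.3, 62.7 and 700 in MES, a log2 difference of 1.61 (SE 0.19, edgeR adjusted p = 0.13).

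Other factors of the crest differed less, or in the opposite direction. *SOX9*, which acts early in the crest and in cartilage, had 2555, 9906 and 11046 normalized counts in EPI and 2474, 5481 and 12081 in MES, a log2 difference of -0.25 (SE 0.20, edgeR adjusted p = 0.54) that was 0.04 without r2. *FOXD3*, a factor of early crest, had 433, 2222 and 2369 in EPI and 497, 1334 and 2899 in MES. *ETS1* had 2857, 15974 and 15694 in EPI and 8695, 14010 and 19979 in MES. *PAX3*, *SOX5* and *TFAP2C* were lower in MES in all 3 pairs, with log2 differences of -0.31 (SE 0.08), -0.34 (SE 0.09) and -0.45 (SE 0.07), and the DESeq2 adjusted p of *TFAP2C* was 4.0e-04. The 24 genes therefore held members in both directions. Among surface and signalling genes of the crest, 8 of 20 were higher in MES in all 3 pairs and 1 was lower. *NGFR* (p75, the receptor used to sort crest cells) had 160, 269 and 1369 in EPI and 1170, 522 and 3858 in MES, a log2 difference of 1.77 (SE 0.38, edgeR adjusted p = 0.17, DESeq2 adjusted p = 7.4e-06).

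Derivatives of the crest were uneven. Of 10 Schwann cell and glial genes, 5 were higher in MES in all 3 pairs and 0 lower. *CDH19*, a cadherin of glial precursors, had 2.16, 15.4 and 186 in EPI and 22.2, 31.3 and 900 in MES, so that most of its counts were in r3. *KIT*, a receptor of pigment cell precursors, changed direction between pairs, with 2959, 1781 and 2374 in EPI and 2464, 1132 and 8397 in MES. Of 12 autonomic and enteric genes only 5 were tested and 1 reached 100 normalized counts, so the list allows little to be said, and *HAND2* had a log2 difference of 0.03 (SE 0.35).

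More PNP genes were lower in MES than higher. Of 26 tested, 15 were lower in all 3 pairs, 1 was higher, 4 were at least 2-fold lower and the median log2 difference was -0.52. *SOX2* (chr3:181711924-181714436) had 17336, 8828 and 6378 normalized counts in EPI and 11176, 5315 and 1786 in MES. MES kept 64.5%, 60.2% and 28.0% of the EPI level of its own differentiation, and MES of r1 was higher than EPI of r2 and r3. The log2 difference was -1.06 (SE 0.26, edgeR adjusted p = 0.18, DESeq2 adjusted p = 3.9e-04). *CDX2* (chr13:27962137-27971139) had 13440, 5318 and 3287 in EPI and 9971, 3614 and 730 in MES, with 74.2%, 68.0% and 22.2% of the EPI level kept. *LIN28A* (chr1:26410778-26429722), an RNA binding protein of early progenitors, had 51412, 13286 and 4472 in EPI and 41246, 9495 and 1274 in MES, so its level differed more between differentiations than between fractions. *NKX1-2*, a factor of the pre-neural zone, had 869, 330 and 153 in EPI and 516, 177 and 67.5 in MES, a log2 difference of -0.93 (SE 0.14, edgeR adjusted p = 0.15, DESeq2 adjusted p = 6.3e-04). *DLL1*, a Notch ligand of the same zone, had 867, 206 and 574 in EPI and 324, 142 and 235 in MES, a log2 difference of -1.12 (SE 0.20, edgeR adjusted p = 0.16).

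Of 12 NMP genes tested, 3 were higher in MES in all 3 pairs and 1, *FGF17*, was lower. *TBXT* (brachyury, the mesodermal factor of NMPs) had 115, 1056 and 325 normalized counts in EPI and 191, 984 and 345 in MES, higher in MES in r1 and r3 and lower in r2. Of 24 genes of epithelial junctions and identity tested, 8 were lower in MES in all 3 pairs, 2 were higher and 0 were 2-fold different, with a median log2 difference of -0.32. *EPCAM* had 173, 287 and 109 in EPI and 156, 135 and 53.6 in MES. *CDH3* (P-cadherin) had 6588, 13852 and 10366 in EPI and 6707, 10912 and 7688 in MES, and *TJP1* (the tight junction protein ZO-1) had a log2 difference of 0.10 (SE 0.06). *CDH2* had 24965, 25523 and 19685 in EPI and 20550, 22476 and 9508 in MES, a log2 difference of -0.50 (SE 0.19, edgeR adjusted p = 0.26). Neuron genes had a median log2 difference of 0.02, with 3 of 15 higher in MES in all 3 pairs and 4 lower.

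*HOX* genes were lower in MES almost throughout. Of the 39 *HOX* genes, 34 were lower in MES in all 3 pairs and 2 were higher, and the median log2 differences were -0.61 for *HOX1* to *HOX5*, -0.61 for *HOX6* to *HOX9* and -0.55 for *HOX10* to *HOX13*. *HOXB9*, a thoracic gene, had 24033, 14568 and 11278 normalized counts in EPI and 17711, 11288 and 6496 in MES, a log2 difference of -0.53 (SE 0.10, edgeR adjusted p = 0.16, DESeq2 adjusted p = 9.8e-04). *HOXD13*, at the posterior end of its cluster, had 2784, 4823 and 4856 in EPI and 1894, 4377 and 2380 in MES. The 2 exceptions were *HOXA13*, with 515, 5526 and 6707 in EPI and 913, 7746 and 6905 in MES, and *HOXA11*, with 3456, 562 and 2140 in EPI and 4781, 1054 and 3193 in MES. Both were named after their values were seen, and among the 39 genes the fitted direction turned for *HOXA10*, to 0.13 without r3, and for *HOXC5*, to -0.20 without r2.

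The posterior share of *HOX* counts was larger in MES. *HOX10* to *HOX13* held 32.2%, 47.4% and 52.8% of *HOX* counts in EPI and 37.0%, 50.9% and 57.1% in MES, higher in MES in each pair. The larger share depended in part on *HOXA11* and *HOXA13*, since without them it was 30.7%, 44.7% and 48.8% in EPI and 34.3%, 46.2% and 49.2% in MES, a difference in r3 of under 1 percentage point. The *HOX* index, the mean paralogue number weighted by normalized counts, was 7.60, 8.51 and 8.95 in EPI and 7.82, 8.75 and 9.23 in MES. The difference was 0.24 ± 0.028 (SD, n = 3 pairs), higher in MES in 3 of 3 pairs, with a two-sided exact sign-flip permutation p of 0.25, the smallest that 3 pairs allow. With log2 counts as weights the difference was 0.0425. The corresponding difference at P5 was -0.07 ± 0.13 (SD, n = 3). The index differed by more between differentiations than between fractions at P8.

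**Figure D4:**
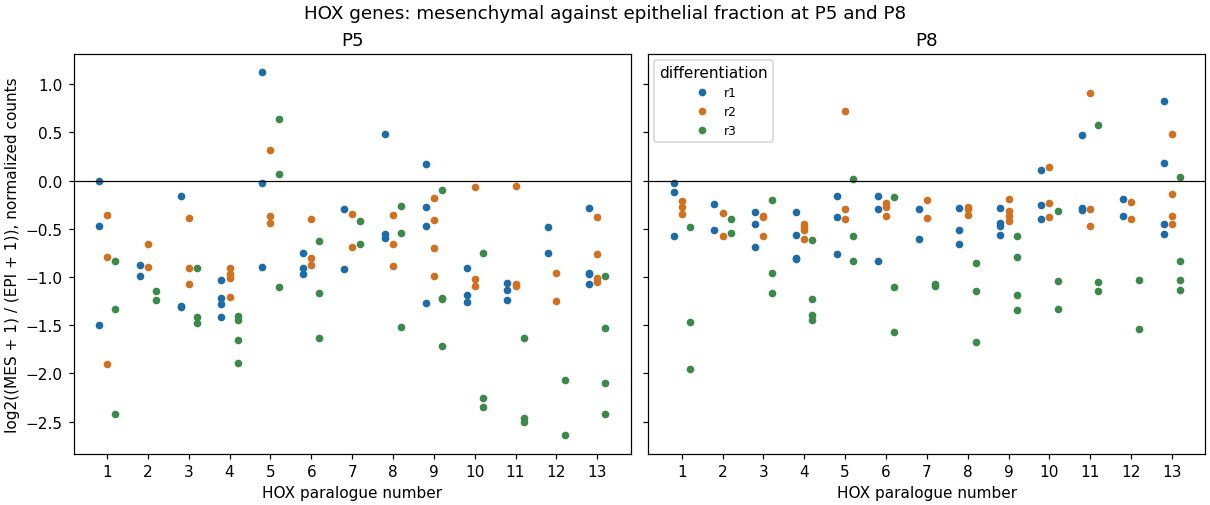
Log2 ratio of MES to EPI (y axis, on normalized counts with 1 added) of each *HOX* gene, by paralogue number (x axis) and differentiation, at P5 (left) and P8 (right). Most points lie below 0 at both passages, with that of r3 the lowest for most genes but not all. At P8 the points above 0 in every differentiation belong to *HOXA11* and *HOXA13*.

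WNT pathway genes were examined because all cultures were under WNT stimulation. The ligand *WNT5A* had 72714, 115720 and 74687 normalized counts in EPI and 57783, 81546 and 29740 in MES, a log2 difference of -0.72 (SE 0.21, edgeR adjusted p = 0.22, DESeq2 adjusted p = 0.0081). *WNT2B* and *WNT11* were higher in MES in all 3 pairs by log2 differences of 1.86 (SE 0.56) and 1.98 (SE 0.54). Receptors were even, with 4 of 17 higher and 6 lower in all 3 pairs and a median of 0.01. Of 20 antagonists and feedback genes, 11 were higher in all 3 pairs and 4 lower. *NOTUM*, which inactivates WNT proteins, had 52.0, 606 and 4673 in EPI and 96.6, 1067 and 9318 in MES, a log2 difference of 0.91 (SE 0.07, edgeR adjusted p = 0.10, DESeq2 adjusted p = 2.4e-11). *APCDD1* had 7462, 21427 and 54942 in EPI and 21170, 33270 and 79728 in MES. *AXIN2*, the general feedback target, differed by only 0.24 (SE 0.06) on the log2 scale, while *SFRP2* was lower in MES with a log2 difference of -0.87 (SE 0.15).

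Among FGF ligands, 5 of 12 were lower in MES in all 3 pairs and 2 higher. *FGF17* had 2116, 897 and 1192 normalized counts in EPI and 1443, 634 and 390 in MES, and *FGF9* had 579, 1719 and 1207 in EPI and 352, 980 and 525 in MES. The fractions overlapped in *FGF9*, since MES of r2 exceeded EPI of r1. Of 18 FGF receptors and feedback genes, 5 were higher in MES in all 3 pairs and 4 lower, with a median log2 difference of 0.07. *FGFR2* had 7586, 3227 and 2512 in EPI and 5155, 1968 and 1947 in MES, a log2 difference of -0.55 (SE 0.08, edgeR adjusted p = 0.15, DESeq2 adjusted p = 1.0e-04). The fitted direction of *FGFR1*, *FGFR3* and *FGFR4* changed in some setting. The feedback phosphatases went apart, with *DUSP6* lower in MES by a log2 difference of -0.51 (SE 0.14) and *DUSP4* higher by 0.93 (SE 0.10). Of the ligands of the BMP and TGF-beta family, 4 of 13 were higher in all 3 pairs and 4 lower. *INHBA*, the activin subunit, had 121, 117 and 740 in EPI and 1148, 455 and 2135 in MES, a log2 difference of 2.22 (SE 0.36, edgeR adjusted p = 0.15, DESeq2 adjusted p = 2.05e-09). *GDF11*, a ligand that regulates the transition from trunk to tail, differed by -0.35 (SE 0.07). Of 18 receptors and targets of the family, 7 were higher in MES in all 3 pairs and 2 lower, with a median log2 difference of 0.03. *ID1*, a BMP target, had 390, 901 and 5558 in EPI and 772, 1918 and 8729 in MES. Its relatives *ID2*, *ID3* and *ID4* each changed their fitted direction in some setting.

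Replication and mitosis genes had a median log2 difference of -0.04, with 2 of 27 higher in MES in all 3 pairs and 10 lower. *MKI67*, the proliferation antigen Ki-67, was one of the former, with 29239, 16336 and 16138 normalized counts in EPI and 31867, 26392 and 28727 in MES. Of 9 CDK inhibitors and D cyclins, 5 were higher in MES in all 3 pairs and 0 lower, with a median log2 difference of 0.33. *GAPDH*, a glycolytic enzyme, had a log2 difference of 0.01 (SE 0.07). Genes that respond to dissociation were higher in MES in all 3 pairs for 14 of 23 and lower for 2, with a median of 0.43. *EGR1* had 113, 77.0 and 166 in EPI and 218, 151 and 414 in MES, and *KLF6* had 1105, 1934 and 3515 in EPI and 4085, 3236 and 5698 in MES. Both fractions were detached by enzyme, and the part of detachment in these values was not tested.

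Lists for other cell types were checked in the same way. Of 18 somite and paraxial mesoderm genes 9 were tested. Their summed level was 227, 687 and 584 normalized counts in EPI and 1066, 627 and 459 in MES, higher in MES in r1 and lower in r2 and r3. Single genes did not follow the sum in r2 and r3, with median log2 ratios of 0.65, 0.0021 and 0.23 in r1, r2 and r3. Of the 9, 2 were higher in MES in all 3 pairs and 0 lower. *MEOX2*, a somite gene, had 43.3, 20.5 and 52.3 in EPI and 636, 22.1 and 64.3 in MES, with log2 ratios of 3.85, 0.10 and 0.29. Lateral and intermediate mesoderm genes summed to 146 to 480 in EPI and 590 to 936 in MES, higher in MES in each pair, of which *OSR1* held 73.6, 60.6 and 157 in EPI and 819, 168 and 305 in MES. Forebrain and midbrain genes summed to 343, 1369 and 1586 in EPI and 1266, 1950 and 2270 in MES. Neural tube progenitor genes summed to 577, 531 and 1461 in EPI and 643, 975 and 2332 in MES. Both sums were higher in MES in each pair, but single genes were not. Of 7 forebrain and midbrain genes tested, 1 was higher and 1 lower in all 3 pairs, with median log2 ratios of 1.32, -0.51 and -0.23. Of 9 neural tube progenitor genes tested, 3 were higher and 4 lower, with medians of 0.09, -0.15 and -0.42. Surface ectoderm and placode genes, with sums of 3947, 9949 and 10705 in EPI and 3378, 6655 and 7393 in MES, were lower in each pair. So was the sum of endoderm genes, a list that holds *CDX2*. Of 9 surface ectoderm and placode genes tested, 3 were lower in all 3 pairs and 1 higher. Among 4 endoderm genes tested, 2 were lower and 1 higher. Endothelial and blood genes summed to 481 to 1908 in EPI and 1176 to 2495 in MES. *RUNX1*, a factor of blood that neural crest derivatives can also express, had 94.5, 156 and 750 in EPI and 298, 295 and 1686 in MES. The part of such cells in the matrix and mesenchymal results was not tested.

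Among the genes with the largest fitted differences were several outside the lists. They were named after the values were seen, because no gene passed edgeR's test in the fit of 17970 genes. *IGSF10*, an immunoglobulin superfamily gene, had 344, 379 and 1524 normalized counts in EPI and 3798, 2324 and 3708 in MES, without overlap, a log2 difference of 2.44 (SE 0.44). *CAV1* (caveolin-1) had 13.7, 93.4 and 73.4 in EPI and 151, 238 and 405 in MES, and *CACNA1C*, a calcium channel subunit, 61.3, 198 and 1467 in EPI and 747, 1052 and 3277 in MES. On the lower side, *RFX4*, a factor of neural progenitors, had 612, 226 and 167 in EPI and 307, 109 and 30.0 in MES, a log2 difference of -1.43 (SE 0.33, edgeR adjusted p = 0.17, DESeq2 adjusted p = 0.0027). *PRMT8*, an arginine methyltransferase of neural tissue, had 613, 728 and 800 in EPI and 270, 398 and 247 in MES, a log2 difference of -1.25 (SE 0.18), and its groups did not overlap.

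*ZFHX3*, a zinc finger homeobox factor, had 3428, 3675 and 8404 normalized counts in EPI and 9184, 9290 and 19921 in MES, a log2 difference of 1.33 (SE 0.06) with the smallest edgeR adjusted p, 0.10, which it shared with other genes, and a DESeq2 adjusted p of 6.6e-48. *SDC1* (syndecan-1, a cell surface proteoglycan) had 2203, 2109 and 6311 in EPI and 4886, 4565 and 11411 in MES, a log2 difference of 1.04 (SE 0.08). *NPR3*, a receptor that clears natriuretic peptides, had 43.3, 133 and 1468 in EPI and 133, 711 and 5221 in MES. When the 12 fraction libraries of P5 and P8 shared 1 fit with a block for each pair, edgeR called 12 genes for the P8 difference (0.0634%), all higher in MES, and these included *ZFHX3*, *SDC1*, *NPR3*, *TBX3*, *INSC*, *AK5*, *KCNA1*, *PLXNA2* and *RNF152*. The other 3 are *FP236383.2*, *FP671120.3* and *FP236383.3*, near-identical copies whose counts are equal in every library and therefore uncertain.

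Promoter sequences were read to see whether the E-box, the 6 letters that SNAI and ZEB repressors recognise, stood before genes of either direction. The letters CAGGTG or CACCTG, 1 motif read on both strands, were sought in the 250 bases before the annotated start (RefSeq, GRCh38.p14). A sequence was matched by symbol for 250 of the 361 higher and 26 of the 39 lower genes, and of 11801 of all genes tested. With a sequence for only part of each group the shares are a description and were not compared. The motif stood in 10.8% of those higher, 19.2% of those lower, 15.6% of all genes tested that had a sequence and 17.5% of all promoters. The promoters below are those of *SDC1* and *IGSF10*, higher in MES, of *FYB2* and *AMER2*, lower in MES, and of *SOX2*, each written 5′ to 3′ on the strand of the gene with the motif in capitals, and *SOX2* holds no match in this window. The examples were chosen with their matches known and do not show how common the motif is.
SDC1 (chr2:20225476-20225725, minus strand): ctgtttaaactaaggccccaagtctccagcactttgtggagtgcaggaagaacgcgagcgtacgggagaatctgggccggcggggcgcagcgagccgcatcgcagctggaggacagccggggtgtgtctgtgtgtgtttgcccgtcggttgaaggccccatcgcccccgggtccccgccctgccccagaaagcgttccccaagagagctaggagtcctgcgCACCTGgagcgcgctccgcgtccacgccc
IGSF10 (chr3:151539317-151539566, minus strand): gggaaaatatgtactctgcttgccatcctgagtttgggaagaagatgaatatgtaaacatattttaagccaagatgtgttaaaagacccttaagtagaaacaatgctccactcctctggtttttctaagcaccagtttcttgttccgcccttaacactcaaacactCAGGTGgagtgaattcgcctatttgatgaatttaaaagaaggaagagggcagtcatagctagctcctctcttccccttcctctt
FYB2 (chr1:56819405-56819654, minus strand): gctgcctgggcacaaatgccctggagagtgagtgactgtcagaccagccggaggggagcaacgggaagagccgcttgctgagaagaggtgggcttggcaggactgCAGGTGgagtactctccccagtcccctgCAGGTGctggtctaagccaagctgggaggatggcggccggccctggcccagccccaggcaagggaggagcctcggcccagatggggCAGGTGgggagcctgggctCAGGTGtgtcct
AMER2 (chr13:25172289-25172538, minus strand): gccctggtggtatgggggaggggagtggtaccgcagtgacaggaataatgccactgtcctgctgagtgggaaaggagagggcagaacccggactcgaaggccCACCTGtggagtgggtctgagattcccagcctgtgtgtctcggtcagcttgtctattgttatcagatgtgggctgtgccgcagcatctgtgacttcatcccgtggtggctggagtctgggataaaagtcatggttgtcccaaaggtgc
SOX2 (chr3:181711675-181711924, plus strand): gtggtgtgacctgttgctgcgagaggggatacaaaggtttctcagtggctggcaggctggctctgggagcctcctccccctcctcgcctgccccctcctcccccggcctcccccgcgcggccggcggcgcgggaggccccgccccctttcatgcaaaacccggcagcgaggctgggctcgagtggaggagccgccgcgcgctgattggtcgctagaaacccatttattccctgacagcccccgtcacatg
*FYB2*, with 4 matches, had 151, 445 and 60.8 normalized counts in EPI and 68.8, 208 and 15.0 in MES, and *AMER2*, with 1, had 688, 238 and 732 in EPI and 295, 144 and 197 in MES. A match describes the letters only.

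The P5 fractions, which share no library with P8 although the P8 cultures descend from P5 cultures, showed larger differences. At P5 edgeR called 974 of 17664 genes (5.51%), 521 higher in MES (2.95%) and 453 lower (2.56%). Without r2 of P5 that count is 0. Read in the P8 libraries, 429 of the 521 were higher in MES in all 3 pairs and 0 were lower in all 3, against 20.7% and 24.9% of all genes tested. Of the 451 lower genes tested at P8, 333 were lower in all 3 pairs and 4 higher in all 3. The median log2 difference of the 521 was 1.55 at P5 and 0.93 at P8, and that of the 451 was -1.32 and -0.52. The genes were chosen at P5, so a larger difference there than at P8 is partly set by that choice. By differentiation, the 521 had P8 medians of 1.76, 0.55 and 0.59 and the 451 of -0.44, -0.34 and -0.87.

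**Figure D5:**
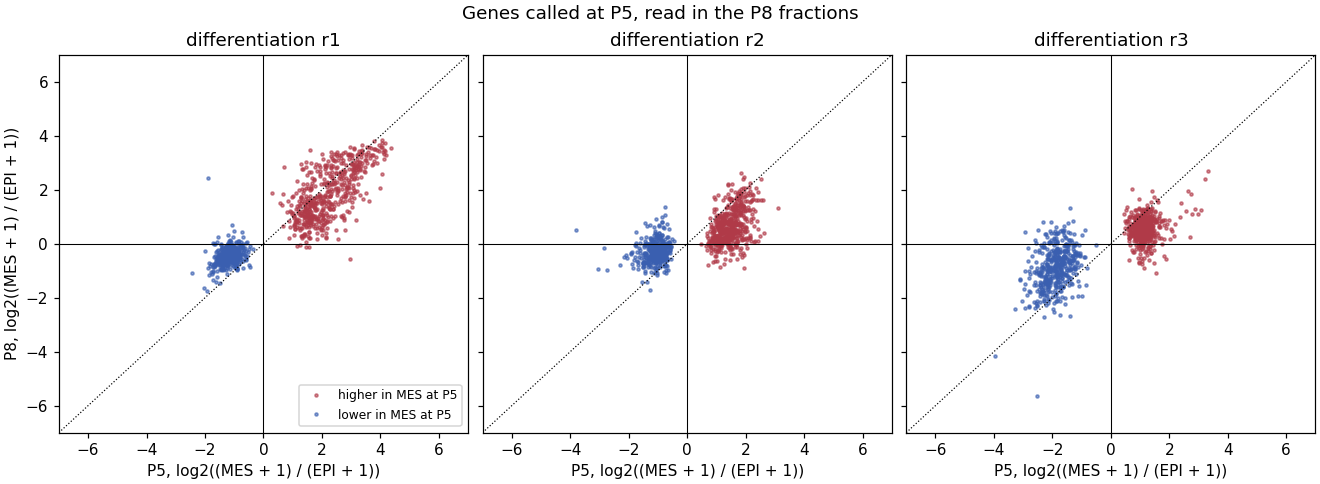
Log2 ratios of MES to EPI at P5 (x axis) and P8 (y axis), on normalized counts with 1 added, for the 972 genes called at P5 and tested at P8, in each differentiation; the dotted line marks equal ratios. Most points keep their sign at P8 and lie closer to 0 than at P5, least so for the higher genes of r1, whose P8 median is 1.76.

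The difference between the passages was tested itself as the interaction of fraction and passage over the 12 libraries. edgeR called 0 of 18924 genes (0%) at an adjusted p under 0.05, with a smallest adjusted p of 0.25 and 2284 genes (12.1%) at an unadjusted p under 0.05, while DESeq2 called 0.539% of the genes, 80 with a higher MES to EPI ratio at P8 than at P5 (0.423%) and 22 with a lower one (0.116%). *SOX9* was among the latter, with 834, 1701 and 2809 normalized counts in P5 EPI and 1969, 3728 and 6342 in P5 MES, and its log2 difference was 1.18 at P5 and -0.25 at P8, an interaction of -1.44 (SE 0.24, edgeR adjusted p = 0.25, DESeq2 adjusted p = 1.2e-06). *FOXD3* had 86.0, 61.8 and 86.9 in P5 EPI and 157, 151 and 389 in P5 MES, against the 433 to 2899 of the P8 libraries, an interaction of -1.53 (SE 0.40, edgeR adjusted p = 0.27, DESeq2 adjusted p = 0.0056). *TNC* (tenascin-C, a matrix glycoprotein) was lower in P5 MES and higher in P8 MES in every pair, with an interaction of 1.73 (SE 0.34, edgeR adjusted p = 0.25, DESeq2 adjusted p = 9.2e-06). *TUBB3*, a neuronal tubulin, had an interaction of 1.32 (SE 0.22, edgeR adjusted p = 0.25, DESeq2 adjusted p = 5.9e-06). These genes were chosen after their values were seen, and 2.5% of the genes tested at both passages had opposite directions in all pairs of P5 and P8.

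The whole P8 cultures lay nearer to EPI than to MES. Their distances to EPI of the same differentiation were 0.25, 0.18 and 0.42 and to MES 0.44, 0.35 and 0.52. On the log2 scale, over the 972 genes called at P5, the whole culture stood 27.9%, 13.7% and 19.1% of the way from EPI to MES in r1, r2 and r3. *TWIST1* had 623, 3246 and 4527 normalized counts in the whole cultures, between the fractions in r1 and r2 and below both in r3. *SOX10* had 48.2, 74.4 and 882 there, above both fractions in r3. The reason was not tested.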

How the data were processed

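PolyA RNA of the fractions was sequenced by the authors, whose processing notes name cutadapt 1.16, STAR 2.5.2b and RSEM 1.3.0 with the GRCh38 build. The annotation release and strand setting are not given in the sources used here. The deposited files hold RSEM expected counts per gene, which were rounded to whole numbers for the tests, and TPM as deposited by the authors, used for levels between genes. Gene names and coordinates came from GENCODE 29. Counts were scaled by TMM over all 47 libraries and tested with edgeR 4.0.16 (R 4.3.3) (quasi-likelihood test, Benjamini-Hochberg adjusted p), each differentiation being a block, and with DESeq2 1.42.0 as an alternative. Replicate numbers mark 1 differentiation each, and same-numbered libraries deviated together, with correlations of 0.78, 0.76 and 0.81 at P8. The n of 3 is of differentiations of 1 line. Genes and lists were chosen with earlier results of these data known, and the scripts were tested on simulated data. The naming rule took defining genes, the members of each list that were called or had the highest level, and the 12 largest changes per direction among called genes, of which there were none. Some genes of the rule and lists are not reported here. Other genes were named after their values were seen. Per-pair ratios used a pseudocount of 1. The alternatives are another scaling, filter, test, threshold, block or set of libraries.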

Additional observations from a re-analysis of the deposited data

Results flagged for a closer look

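In 11 of 564 list genes tested at both passages (1.95%), every pair of fractions differed one way at P5 and the opposite way at P8, a share no higher than the 430 of 17187 (2.5%) over all genes. The 10 with at least 100 normalized counts on average are given here. Values are the log2 MES to EPI difference at P8 minus that at P5, and edgeR's interaction test passed for none of the 10. *TNC* (1.73) and *HOXA11* (1.61) were lower in MES at P5 and higher at P8, with edgeR adjusted p of 0.25 and 0.27 and DESeq2 adjusted p of 9.2e-06 and 4.7e-04. *EVX1* (1.71) and *HOXA13* (1.51) moved in the same sense, with a DESeq2 adjusted p of 0.13 for each. *ADAMTS9* (0.71), *PDGFRA* (0.61), *DUSP1* (0.45) and *EFNA4* (0.24) were likewise lower at P5 and higher at P8, by less. *LIN28B* (-0.51) and *FZD7* (-0.51) were higher in MES at P5 and lower at P8.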

How the results depend on the processing

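Between P8 MES and EPI, DESeq2 called 256 genes higher and 23 lower, edgeR without the count filter 180 and 15, and edgeR over the 12 fraction libraries 12 and 0. The other settings gave 0, as did the fit without the replicate block and the fits without each differentiation. The 2-fold genes numbered 218 to 484 higher and 14 to 135 lower when 1 differentiation was left out, with 218 and 135 without r1, 111 lower without r2 and 14 lower without r3. At P5 the fit without the replicate block called 0 in each direction, an adjusted p under 0.01 gave 142 higher and 86 lower, and leaving out 1 differentiation gave 0 to 561 higher and 0 to 396 lower. The interaction had 80 genes higher and 22 lower in DESeq2 and 20 and 7 without the count filter, 0 without the replicate block, and 0 to 1 lower with 1 differentiation left out. The *HOX* index difference was 0.185 with TPM weights and 0.0425 with log2 weights. Among 6199 comparisons of single genes with an alternative, 151 passed the threshold only in the alternative, and 137 genes, none called, changed sign in some setting. *SOX9*, *FOXD3* and *HOXA10* did so on leaving out r2, r2 and r3. The cause was not tested. With none called at P8, the position of the whole culture was read over genes called at P5, an alternative chosen after seeing the data, as was the 2-fold rule. With 3 pairs, precision is limited by the spread between differentiations.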
